A study of Homo sapiens with 8 samples.

Results

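The genes described here are 10 cell surface markers that are used to sort stem-like or mesenchymal cells: CD44, CD24, EPCAM, PROCR, THY1, ENG, NT5E, MCAM, ALCAM and PDPN. They were chosen by symbol, with earlier results of these data known, and all 10 have a row among the 58336 gene identifiers of the count table. Their levels were followed in 8 poly(A) RNA-seq libraries of the human breast cancer cell line SUM159, an established triple-negative line with mesenchymal features. ITGB4-high cells (2 libraries) and ITGB4-low clone 1 cells (3 libraries) were grown in dishes. The other 3 libraries, called lung-recovered here, came from ITGB4-low clone 1 cells that had been injected into the tail vein of mice. These mice were treated through the trachea with bleomycin, which damages DNA and injures lung tissue. After dissociation of those lungs the suspension was kept in culture overnight, and tdTomato-positive tumour cells were sorted. Every group is the same cell line, the ITGB4-low and lung-recovered cells descend from 1 clone, and the labels give neither mouse nor dish for a library.

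Surface markers such as these are adhesion receptors, enzymes and co-receptors whose presence on a cell is read with antibodies, whereas the values here are RNA. In breast tissue and breast cancer, high CD44 with low CD24 is the profile used to enrich stem-like tumour-initiating cells, EPCAM marks epithelial cells, and PROCR marks multipotent mammary cells in mice. THY1 (CD90), ENG (CD105) and NT5E (CD73) are the defining positive markers of cultured mesenchymal stromal cells, to which MCAM (CD146) and ALCAM (CD166) are often added. PDPN marks lymphatic endothelium, alveolar type I cells and some invasive tumour and stromal cells.

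The libraries held 20.41 to 27.22 M counts, and 15220 genes passed the filter on low counts and were tested. ITGB4 followed the labels in the dishes (376 to 419.9 CPM in high and 5.29 to 9.13 CPM in low libraries) and stood at 375.5 to 407 CPM in the lung-recovered libraries. Levels are CPM (counts per M counts of the library, after TMM scaling of its size), and a gene is called higher or lower where edgeR's quasi-likelihood test gave a Benjamini-Hochberg adjusted p under 0.05 over all genes tested. Of the 10 markers, 8 were tested. EPCAM and THY1 fell under the filter and are given by their counts. Of the cell line's usual markers, VIM stood at 4377 to 4828 CPM as group means, CDH1 and PGR had 0 counts and ESR1 had 7 counts in all libraries together.

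Comparing ITGB4-low clone 1 with ITGB4-high cells in dishes, 6 of the 8 tested markers were higher and 2 were lower in ITGB4-low. MCAM, ALCAM, CD24, NT5E, CD44 and ENG were higher, and PDPN and PROCR were lower. Over all genes tested 56.2% were called in this comparison (28.6% higher and 27.6% lower), and 65.2% of the 9759 genes that reached 10 CPM in either group. The median log2 fold change was 0.69 over the 8 markers and 0.00 over all genes. MCAM, ALCAM and CD24 were at least 2-fold higher, and a difference of that size in either direction was found for 13.1% of all genes tested. For all 8 the library values of the groups were separate, which was also so for 68.7% of all genes. Since every ITGB4-low library is of clone 1, what belongs to this clone and what to low ITGB4 cannot be told apart.

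Comparing lung-recovered with ITGB4-low cells, 1 of the 8 (PDPN) was higher, 4 (CD24, ALCAM, NT5E and MCAM) were lower, and CD44, ENG and PROCR were not called. The share of all genes called here was 30.1% (14.7% higher and 15.4% lower), and 35.3% among the 9694 genes that reached 10 CPM. The median log2 fold change was -0.18 over the markers. CD24 alone of the 8 changed by at least 2-fold, against 5.51% of all genes tested. It had only 7 or 8 counts in each lung-recovered library, and passed the filter on low counts through the dish-grown libraries, where it was higher. Groups did not overlap for 6 of the 8, and for 43.3% of all genes. Passage through the mouse, bleomycin, overnight culture and sorting came together in the lung-recovered libraries and cannot be told apart.

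Between lung-recovered and ITGB4-high cells, 7 of the 8 were called, 5 higher (MCAM, ALCAM, CD44, NT5E and ENG) and 2 lower (CD24 and PDPN), and PROCR was not. Here 51.2% of all genes were called (26.2% higher and 25.0% lower), and 60.2% of the 9754 with at least 10 CPM. The median was 0.30 over the markers, and MCAM and CD24 differed by at least 2-fold, as did 10.6% of all genes. Groups did not overlap for any of the 8 markers, nor for 66.8% of all genes. Each pair of these comparisons shares a group of libraries, so their values are set side by side and are not independent of each other.

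**Figure D1:**
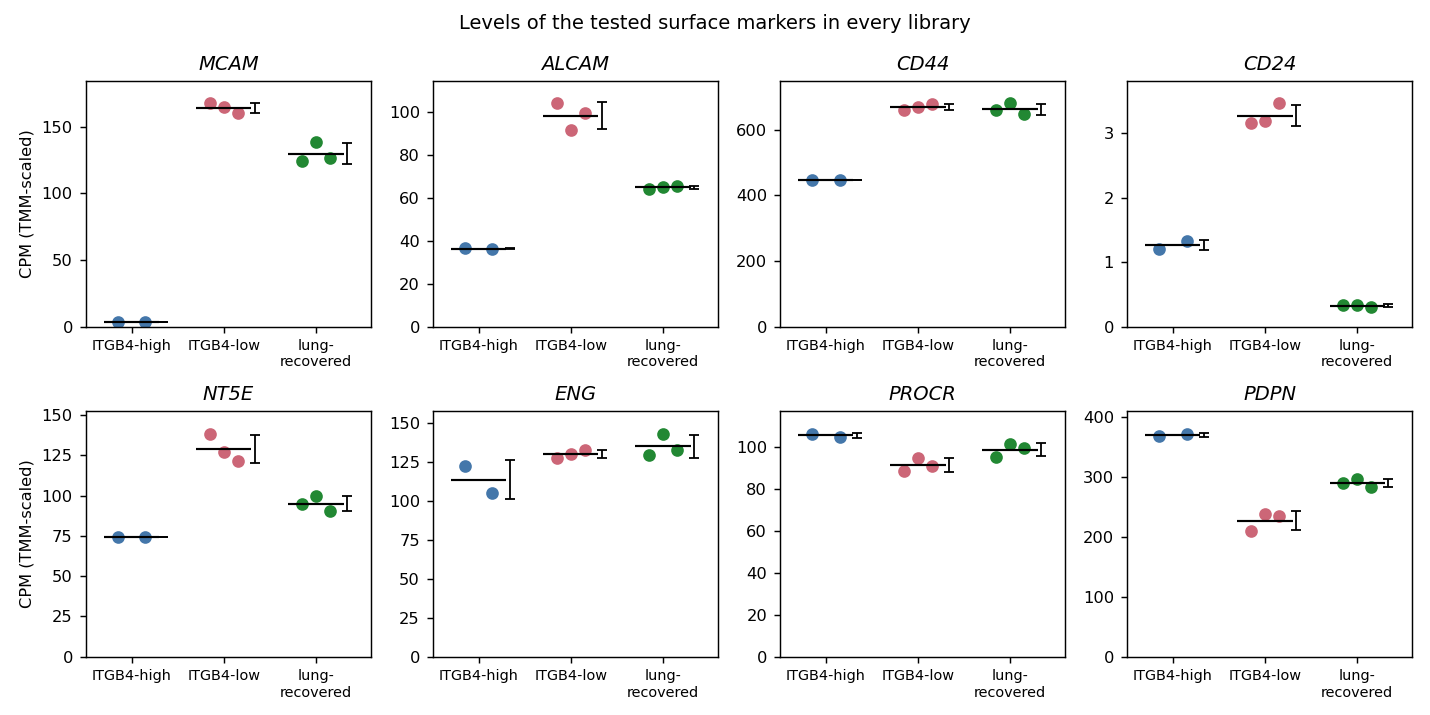
Levels of the 8 tested markers in each library (vertical axis, CPM after TMM scaling, starting at 0), with 1 panel per gene, points for libraries, a line at the group mean and a bar of 1 SD. MCAM stays under 4 CPM in the 2 ITGB4-high libraries and exceeds 124 CPM in the other 6, CD24 is lowest in the lung-recovered libraries, and CD44 overlaps between the ITGB4-low and lung-recovered libraries.

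**Figure D2:**
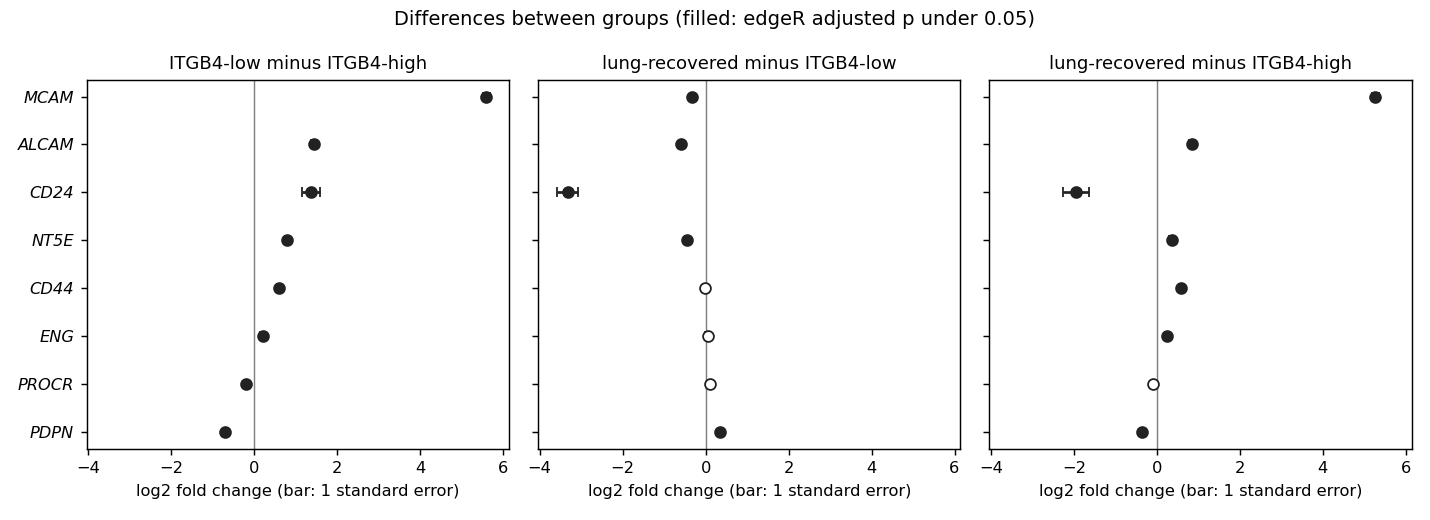
Log2 fold changes of the 8 tested markers (horizontal axis) in the 3 comparisons, with bars of 1 standard error and filled points for edgeR adjusted p under 0.05. MCAM lies at 5.60 and 5.26 in the comparisons with ITGB4-high, and CD24 lies at -3.33 between lung-recovered and ITGB4-low cells.

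MCAM, an immunoglobulin-type adhesion receptor of pericytes, endothelium and melanoma cells, differed most of the 8 between the dish-grown groups. ITGB4-high libraries had 3.47 and 3.31 CPM of it (92 and 85 counts). In the ITGB4-low libraries it was 168, 165 and 160.4 CPM (3452, 3520 and 3986 counts), and in the lung-recovered libraries 125, 139 and 126 CPM. The 2 ITGB4-high libraries were far below the other 6, and the lung-recovered libraries were all below the ITGB4-low ones. On the log2 scale MCAM was 5.60 above ITGB4-high (SE 0.08, edgeR adjusted p = 4.1e-20), or 48.4-fold, in ITGB4-low cells. In lung-recovered cells it was 5.26 (SE 0.08, edgeR adjusted p = 1.56e-19), or 38.2-fold. From ITGB4-low to lung-recovered cells MCAM fell by 0.34 on the log2 scale (SE 0.05, edgeR adjusted p = 9.98e-06).

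MCAM (ENSG00000076706) lies on the minus strand of chromosome 11 in hg38, from 119308529 to 119321521. Its exons share 509 bases with those of CBL, a ubiquitin ligase gene on the opposite strand. The libraries keep strand information, but the strand setting of the counting is not given in the sources used here, so reads from the shared bases cannot be assigned with certainty. CBL stood at 109.9 to 112 CPM in ITGB4-high and at 203 to 247 CPM in ITGB4-low libraries, a log2 difference of 1.01 (SE 0.06). The few counts of MCAM in ITGB4-high cells are therefore the least certain of its values.

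ALCAM, an adhesion receptor of the same immunoglobulin superfamily that binds itself and CD6, followed the same order of groups at a smaller scale. Its libraries read 36.4 and 36.2 CPM in ITGB4-high libraries, 104, 91.4 and 99.3 CPM in ITGB4-low, and 63.9, 64.9 and 65.5 CPM in lung-recovered cells. No library of a group overlapped with another group, and the lung-recovered cells were in between. ALCAM was 2.71-fold higher in ITGB4-low than in ITGB4-high cells (log2 fold change 1.44, SE 0.06, edgeR adjusted p = 9.77e-14). It fell by 0.60 (SE 0.05, edgeR adjusted p = 1.09e-08) from there to the lung-recovered cells, which stood 0.84 (SE 0.06, edgeR adjusted p = 6.31e-10) above ITGB4-high on the log2 scale. The gene (ENSG00000170017) lies on the plus strand of chromosome 3, from 105366909 to 105576900.

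The 250 bases upstream of the start sites of MCAM, ALCAM and CD24 are printed because these 3 markers are the ones with a difference of at least 2-fold. They were read from RefSeq's promoter table (GRCh38.p14), in which 8 of the 10 markers were matched. Each runs 5′ to 3′ on the strand of its gene and ends at the base before the start site. Capitals mark matches, on either strand, to 5 motifs. These are the GC box bound by SP factors (GGGCGG), an E-box bound by SNAI and ZEB factors (CACCTG), the AP-1 site (TGANTCA), the TATA box (letters TATAAA) and the cAMP response element (TGACGTCA). The windows are chr11:119317131-119317380 (minus strand) for MCAM, chr3:105366659-105366908 (plus strand) for ALCAM, and chr6:106975628-106975877 (minus strand) for the most upstream of the start sites of CD24.
MCAM: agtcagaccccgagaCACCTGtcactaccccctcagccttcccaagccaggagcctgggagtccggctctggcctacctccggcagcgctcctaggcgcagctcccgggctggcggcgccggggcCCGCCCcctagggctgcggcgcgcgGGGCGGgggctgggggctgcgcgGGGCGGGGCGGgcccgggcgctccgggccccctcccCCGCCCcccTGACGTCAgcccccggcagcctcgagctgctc
ALCAM: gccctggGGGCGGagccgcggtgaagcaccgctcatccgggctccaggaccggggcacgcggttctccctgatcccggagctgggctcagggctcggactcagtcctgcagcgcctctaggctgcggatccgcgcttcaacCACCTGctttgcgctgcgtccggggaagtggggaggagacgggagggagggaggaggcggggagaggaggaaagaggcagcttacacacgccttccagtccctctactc
CD24: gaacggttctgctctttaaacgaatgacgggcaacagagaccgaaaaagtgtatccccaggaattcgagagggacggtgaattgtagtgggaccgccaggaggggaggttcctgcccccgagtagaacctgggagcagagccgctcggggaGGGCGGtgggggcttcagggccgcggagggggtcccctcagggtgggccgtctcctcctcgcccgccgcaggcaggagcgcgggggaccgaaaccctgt

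The MCAM window holds 5 GC boxes, of which 2 overlap by 1 base, an E-box that begins 235 bases upstream of the start, and a cAMP response element that begins 32 bases upstream. ALCAM has a GC box at 243 bases and an E-box at 109 bases, and CD24 has a GC box at 99 bases. Among 35116 RefSeq promoter windows of the same length, 42.6% hold a GC box, 17.5% this E-box and 1.65% the cAMP response element. Bases G and C make up 79.6% of the MCAM window, 68.8% of that of ALCAM and 65.6% of that of CD24, against a median of 58% over all windows. None of the 3 windows printed holds a TATA box or an AP-1 match, which 10.7% and 6.57% of windows do. These are matches of letters, and binding was not measured.

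Most genes near MCAM on chromosome 11 were also higher in ITGB4-low than in ITGB4-high cells, at the median by far less than MCAM. The 69 other tested genes within 5 Mb had a median log2 fold change of 0.60, and 66.7% of them were called higher, against 28.6% of all genes tested. With a window of 10 Mb the median was 0.37 and the share called higher 53.5% (127 genes). No gene among them reached the value of MCAM. Within 5 Mb AP000892.3 had a log2 fold change of 4.82 and NXPE2 of 2.92, whereas MPZL2 had -2.75 and NECTIN1 -2.04. The nearest tested neighbours, CBL and the ubiquitin ligase gene RNF26, were higher by 1.01 and 1.17. Between lung-recovered and ITGB4-low cells the median of the same 69 genes was -0.09. Around ALCAM (24 genes, median -0.11), CD24 (43 genes, -0.06), NT5E (32 genes, -0.03) and CD44 (35 genes, 0.00) no such upward shift was seen in the comparison of the dish-grown groups. Within 10 Mb of ALCAM the median was -0.25 (65 genes), opposite in sign to the change of ALCAM itself. A smaller upward shift was seen around EPCAM on chromosome 2, where 34 genes had a median of 0.27 and 55.9% were called higher. THY1 lies 95.9 kb from MCAM, so the same region surrounds it.

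**Figure D3:**
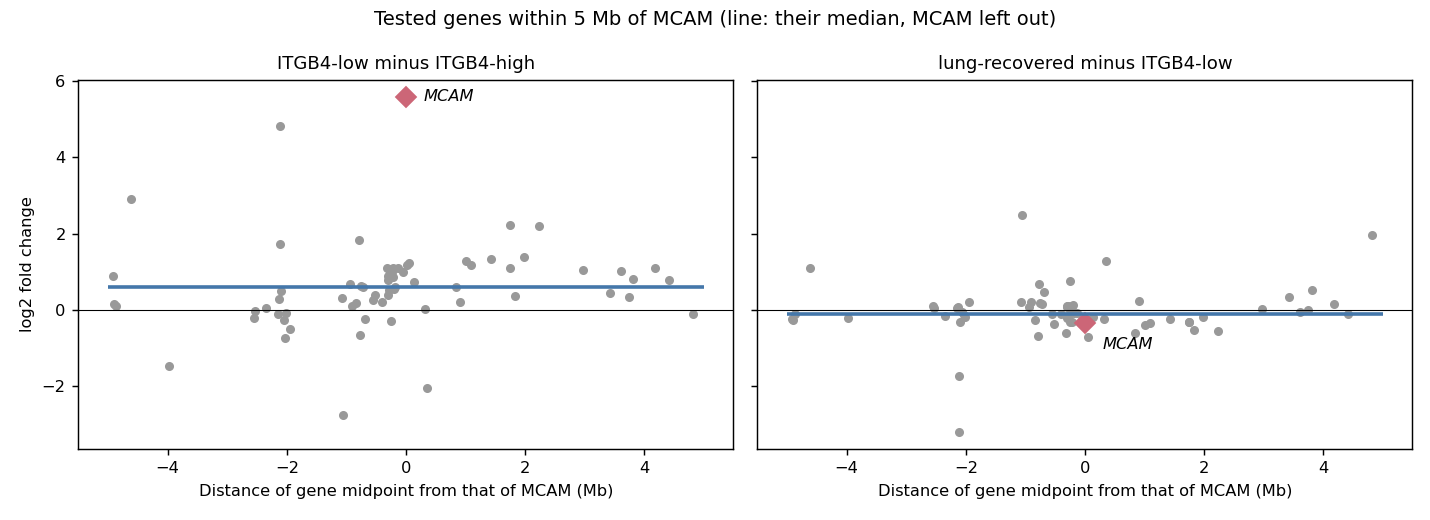
Log2 fold change (vertical axis) of tested genes within 5 Mb of MCAM, by distance of their midpoint from that of MCAM (horizontal axis, Mb), for 2 comparisons, with MCAM as a diamond and a line at the median of the 69 other genes. The median lies at 0.60 on the left and -0.09 on the right, and MCAM at 5.60 is the highest point on the left.

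By profile over the 8 libraries, the genes nearest to MCAM were NPAS2, DDR2 and ADAMTS2. Nearness was the root mean square difference of centred log2 levels, over 9779 candidate genes that reached 10 CPM as a group mean, and was 0.24, 0.26 and 0.32 for these. DDR2, a collagen receptor kinase, went from 2.14 CPM in ITGB4-high to 95.6 CPM in ITGB4-low and 56.0 CPM in lung-recovered cells. ADAMTS2, which trims procollagen, went from 0.424 to 31.6 and 29.6 CPM, and the circadian factor NPAS2 from 0.134 to 10.9 and 11.9 CPM. The nearest to ALCAM were the cytokine receptor IL31RA, FNBP1 and the actin-binding NEXN, all at 0.09. Nearness here describes 8 libraries that fall into 3 groups.

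Other immunoglobulin-like adhesion molecules moved in both directions between the dish-grown groups, 9 of 22 tested higher and 8 lower in ITGB4-low, with a median of 0.02. Beside the counts of this list and of those below, 56.2% of all genes tested were called between the dish-grown groups. The shares were 30.1% between lung-recovered and ITGB4-low cells and 51.2% between lung-recovered and ITGB4-high cells. NCAM1, the neural adhesion molecule, rose from 10.4 to 130.4 CPM (log2 fold change 3.65), and CADM3 from 7.87 to 61.1 CPM (2.96). NECTIN4 went from 3.46 to 0.0715 CPM (log2 fold change -5.44). The laminin receptor BCAM, for which ITGB4-low libraries had 2 counts in all, was 133-fold lower there than in ITGB4-high (95% counting interval 36.4 to 1106). In lung-recovered cells BCAM was 278-fold above ITGB4-low (76.5 to 2298). In that comparison 4 of the 22 were higher and 7 lower, NCAM1 (-0.70) and CADM3 (-0.67) among the lower, and against ITGB4-high 8 were higher and 8 lower.

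A list of 17 tested partners of CD24, THY1, MCAM, ALCAM and PDPN had 9 higher and 6 lower in ITGB4-low than in ITGB4-high cells. WNT5A, a ligand whose signalling is linked to MCAM, rose from 3.49 to 21.3 CPM (log2 fold change 2.61), and the integrin subunit ITGB3 from 4.28 to 24.0 CPM (2.48). The tetraspanin CD82 (-1.33) and the laminin chain LAMA5 (-0.71) were lower. Both of these were higher again in lung-recovered than in ITGB4-low cells, by 1.00 and 0.96, where 6 of the 17 were higher and 6 lower. Lung-recovered cells differed from ITGB4-high in 11 of the 17, with 8 higher and 3 lower. The laminin chain LAMA4, a ligand of MCAM, had 9 counts, and the ALCAM ligand CD6 had 13 counts in all libraries.

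MCAM also marks pericytes and endothelium, which lung tissue holds. The lungs were of mice, whereas the counts of every cell marker list here are of human genes (build hg38). MCAM stood at 160.4 to 168 CPM in the ITGB4-low libraries, which were grown in dishes without lung tissue. Of 18 markers of lung fibroblasts and mural cells, 17 had a count, and their summed level was 122 to 132 CPM in ITGB4-high, 354 to 365 CPM in ITGB4-low and 335 to 364 CPM in lung-recovered libraries, led by CSPG4 (49.3, 223.8 and 185 CPM). Within that sum the collagen gene COL1A1 stood at 28.1, 30.7 and 101 CPM and NOTCH3 at 10.3, 46.0 and 20.7 CPM, and ITGA8 was at 0. Single genes of the list thus ran in different directions under sums that overlapped between ITGB4-low and lung-recovered libraries. Of 15 blood endothelial markers, CLDN5 and SOX17 were at 0, and the sum was 24.4 to 25.6, 26.4 to 27.6 and 25.8 to 27.9 CPM in the same order. Its leading genes differed as well: ERG stood at 18.3, 10.96 and 13.9 CPM, EGFL7 at 0.649, 6.21 and 6.37 CPM, and ROBO4 at 2.12, 4.31 and 3.59 CPM. The 6 tested blood endothelial markers had a median log2 fold change of 0.94 between the dish-grown groups. Between lung-recovered and ITGB4-low cells their median was -0.49, and between lung-recovered and ITGB4-high cells 0.17. For the 9 tested fibroblast and mural markers the medians in the same order were 1.65, -0.27 and 1.00. The part of such cells in the level of MCAM was not tested. In bulk RNA such as this, fewer cells with a transcript and less of it per cell cannot be told apart.

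CD44, the receptor for hyaluronan that links the pericellular matrix to the cytoskeleton, was well expressed in every library. It read 446.2 and 446.3 CPM in ITGB4-high cells. It read 659, 669 and 679.6 CPM in ITGB4-low cells, and 660.5, 680.5 and 647 CPM in lung-recovered cells. All 6 libraries of clone 1 cells lay above both ITGB4-high libraries, and the 2 groups of clone 1 cells overlapped. CD44 was 1.50-fold higher in ITGB4-low (log2 fold change 0.58, SE 0.05, edgeR adjusted p = 1.25e-09) and 1.48-fold higher in lung-recovered than in ITGB4-high cells (0.57, SE 0.04, edgeR adjusted p = 2.5e-09). The difference between lung-recovered and ITGB4-low cells was -0.01 (95% interval -0.10 to 0.07, edgeR adjusted p = 0.829), so a change beyond that interval was not seen. The gene (ENSG00000026508) lies on chromosome 11, from 35138870 to 35232402 on the plus strand, and gene counts do not separate its splice forms.

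CD24, a small glycoprotein held by a lipid anchor, had few counts in every group. It had 32 and 34 counts in the ITGB4-high libraries (1.21 and 1.32 CPM), and 65, 68 and 86 counts in the ITGB4-low ones (3.16, 3.19 and 3.46 CPM). In the lung-recovered libraries it had 8, 7 and 8 counts (0.336, 0.331 and 0.301 CPM). The groups did not overlap: CD24 was highest in ITGB4-low and lowest in lung-recovered cells. It passed the filter on low counts through the dish-grown libraries.

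CD24 was higher in ITGB4-low than in ITGB4-high cells by 1.37 on the log2 scale (SE 0.21, edgeR adjusted p = 1.85e-05), and summed counts gave a ratio of 2.59 (95% counting interval 1.96 to 3.47). From ITGB4-low to lung-recovered cells it fell by 3.33 (SE 0.25, edgeR adjusted p = 2.54e-09). The summed counts, 219 against 23, made it 10.2-fold lower there (6.63 to 16.4). Against ITGB4-high the lung-recovered cells were 3.94-fold lower (2.41 to 6.63; log2 fold change -1.96, SE 0.31, edgeR adjusted p = 3.04e-05). None of the 43 other tested genes within 5 Mb of CD24 fell as far between ITGB4-low and lung-recovered cells, and their median was -0.05. CD24 (ENSG00000272398) lies on chromosome 6, from 106969831 to 106975627 on the minus strand. Its processed pseudogenes CD24P1 and CD24P2 had 0 counts.

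The CD44-high, CD24-low profile is read as protein on single cells, which bulk RNA does not measure. Per kb of exon, CD44 stood at percentiles 93.7, 96.3 and 96.2 of the tested genes in ITGB4-high, ITGB4-low and lung-recovered cells. CD24 stood at 16.5, 25.6 and 4.05, so CD44 was high and CD24 low in the RNA of every group. The level of CD44 over that of CD24, each per kb of exon, was also taken as a ratio. This ratio was 114 and 104 in the ITGB4-high libraries, 64.6, 64.9 and 60.8 in the ITGB4-low ones, and 608, 636 and 666 in the lung-recovered ones. As log2 values the groups stood at 6.77 ± 0.09 (SD, n = 2), 5.99 ± 0.05 (n = 3) and 9.31 ± 0.06 (n = 3), with no overlap. Since CD44 differed little between ITGB4-low and lung-recovered cells, the difference in the ratio between those groups was almost all in CD24. With 7 or 8 counts of CD24 behind each lung-recovered library, the ratio there carries the counting error of CD24. The SD of 0.06 does not show the size of that error. For CD24 alone the 95% counting interval ran from 6.63-fold to 16.4-fold lower in lung-recovered than in ITGB4-low cells.

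Genes with a profile near that of CD24 were TMEM98, RIPOR2 and the heparan sulfate sulfotransferase HS6ST3, at root mean square differences of 0.52, 0.54 and 0.59. RIPOR2 went from 110.0 and 114.7 CPM in the dish-grown groups to 27.6 CPM in lung-recovered cells. TMEM98 went from 2.26 to 11.1 and 1.69 CPM. No gene was as near to CD24 as those nearest to MCAM or ALCAM.

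Hyaluronan enzymes and the partners of CD44 gave 5 higher and 4 lower of 15 tested genes in ITGB4-low against ITGB4-high cells (median -0.18). The linkers of CD44 to actin divided: MSN rose from 623 to 809.9 CPM (0.38) and EZR from 389 to 463 CPM (0.25), whereas RDX went down from 139 to 66.4 CPM (-1.07). CEMIP, which helps degrade hyaluronan, rose from 0.116 to 2.58 CPM (4.41) and was lower again in lung-recovered cells (-2.08). LAYN, another hyaluronan receptor, was at 14.95 CPM in ITGB4-high and had 0 counts in both groups of clone 1 cells, at least 333-fold lower in ITGB4-low and at least 357-fold lower in lung-recovered cells. In lung-recovered against ITGB4-low cells 2 of the 15 were higher and 4 lower, and MSN and EZR, like CD44, were not called (0.00 and 0.01). Against ITGB4-high, lung-recovered cells had 5 of the 15 higher and 3 lower. The hyaluronan synthases HAS1 and HAS2 had 5 and 3 counts in all libraries.

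EPCAM, the epithelial adhesion molecule, had 0 counts in both ITGB4-high libraries, 0, 1 and 3 counts in the ITGB4-low libraries, and 1, 0 and 1 counts in the lung-recovered libraries. A count of 0 over the ITGB4-high group allows a level of up to 0.0575 CPM, from 3 counts. At this depth no difference between groups could be shown. EPCAM (ENSG00000119888) lies on chromosome 2, from 47345158 to 47387601. Of 19 other epithelial surface genes, 8 were tested, and 3 were higher and 1 lower in ITGB4-low than in ITGB4-high cells. The median log2 fold change of the 8 was 1.00, and 4 of them were not called. The summed level of the 19 went the other way. It was 59.7 to 61.1 CPM in ITGB4-high and 43.4 to 47.0 CPM in ITGB4-low libraries, and 197 to 213 CPM in lung-recovered libraries.

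The tight-junction gene CLDN1 was detected throughout, unlike EPCAM. It read 54.8 CPM in ITGB4-high, 33.6 CPM in ITGB4-low (log2 fold change -0.71) and 195 CPM in lung-recovered cells, 2.53 above ITGB4-low. OCLN was higher by 1.48 and MUC1 by 1.02 in ITGB4-low than in ITGB4-high. Lung-recovered cells had 2 of the 8 higher and 2 lower than ITGB4-low (median 0.52), and 4 higher and 0 lower than ITGB4-high (median 0.69). CLDN7, which forms a surface complex with EPCAM, had 12 counts in all libraries. Of 15 lung epithelial markers, 7 (SFTPA1 and SFTPD among them) were at 0 in every library, and the sum of the list was 5.81 to 6.71 CPM in ITGB4-high, 47.9 to 50.4 in ITGB4-low and 47.3 to 48.4 in lung-recovered libraries. Its leading genes were ABCA3 (2.41, 31.6 and 35.2 CPM as group means), RTKN2 (1.93, 14.7 and 10.2 CPM) and LAMP3 (0.879, 0.398 and 1.60 CPM).

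Of the 3 markers that define cultured mesenchymal stromal cells, NT5E and ENG were called higher in ITGB4-low and in lung-recovered than in ITGB4-high cells, and THY1 had no counts. NT5E, the enzyme that makes adenosine from AMP at the cell surface, read 74.2 and 74.2 CPM in ITGB4-high libraries. It read 138, 127 and 122 CPM in ITGB4-low and 94.9, 99.7 and 90.4 CPM in lung-recovered libraries. The 3 groups did not overlap, with ITGB4-low the highest. NT5E was 1.74-fold higher in ITGB4-low than in ITGB4-high cells (log2 fold change 0.80, SE 0.06, edgeR adjusted p = 6.85e-10), and it fell by 0.44 (SE 0.05, edgeR adjusted p = 1.29e-06) to the lung-recovered cells. Those stayed 0.36 (SE 0.06, edgeR adjusted p = 4.51e-05) above ITGB4-high. NT5E (ENSG00000135318) lies on chromosome 6, from 85449584 to 85495791.

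ENG, a co-receptor for ligands of the TGF-beta and BMP family, differed little. It read 122 and 105 CPM in ITGB4-high libraries, 127, 130.1 and 133 CPM in ITGB4-low, and 129, 143 and 132 CPM in lung-recovered libraries. The second ITGB4-high library stood below all others, and the first lay just below the lowest ITGB4-low library. ENG was called higher in ITGB4-low (log2 fold change 0.20, SE 0.06, edgeR adjusted p = 0.00925) and in lung-recovered cells (0.25, SE 0.06, edgeR adjusted p = 0.00198) than in ITGB4-high. Without the second ITGB4-high library both calls were lost, with 0.08 (edgeR adjusted p = 0.3) and 0.13 (edgeR adjusted p = 0.102). Between lung-recovered and ITGB4-low cells the difference was 0.05 (95% interval -0.06 to 0.16, edgeR adjusted p = 0.539). ENG (ENSG00000106991) lies on chromosome 9, from 127815012 to 127854756, and shares 313 exon bases with AL162586.1 on the opposite strand, which had 1.03 to 1.50 CPM as group means.

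THY1, a small lipid-anchored glycoprotein of stromal cells and neurons, had 0 counts in all 8 libraries, which allows a level of up to 0.0157 CPM over them. Its position is chromosome 11, 119417378 to 119424985 (ENSG00000154096). The nearest tested genes on either side, USP2 and USP2-AS1, were higher in ITGB4-low than in ITGB4-high cells by 1.24 and 0.74, and the median of 68 tested genes within 5 Mb was 0.61 (0.37 within 10 Mb). Genes that mesenchymal stromal cells should lack were also low: HLA-DRB1 had 0 counts and CD34 had 12, and PTPRC was at 0, 0.864 and 0.781 CPM in ITGB4-high, ITGB4-low and lung-recovered cells.

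Because THY1, NT5E and CD24 are held in the membrane by a GPI anchor, the genes that build the anchor were also followed. Of 27 tested, 5 were higher and 5 lower in ITGB4-low than in ITGB4-high cells, 2 were higher and 1 lower in lung-recovered than in ITGB4-low cells, and 5 were higher and 6 lower in lung-recovered than in ITGB4-high cells. Medians were 0.02, -0.07 and -0.04. PIGL (1.11) and PIGB (0.65) were the highest and PIGX (-0.89) and PIGW (-0.72) the lowest of those called between the dish-grown groups.

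The enzymes, receptors and transporters of extracellular adenosine changed gene by gene. In ITGB4-low against ITGB4-high cells 3 of 7 tested were higher and 2 lower. The adenosine receptor ADORA2B rose from 0.937 to 8.52 CPM (log2 fold change 3.18) and stood at 11.3 CPM in lung-recovered cells, 0.39 above ITGB4-low. The uptake carriers SLC29A1 and SLC29A2 were lower by log2 fold changes of -0.50 and -1.01. ENTPD1 (CD39), which supplies NT5E with AMP, had 10 counts in all libraries. Lung-recovered cells had 2 of the 7 higher and 1 lower than ITGB4-low, and 3 higher and 2 lower than ITGB4-high.

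Of 12 tested receptors and ligands of the endoglin and TGF-beta family, 8 were higher and 2 lower in ITGB4-low than in ITGB4-high cells (median 0.48). Of all genes tested, 28.6% were higher and 27.6% lower there. The ligand TGFB2 rose from 1.73 to 31.2 CPM (4.18), the signalling receptor TGFBR2 from 252 to 424 CPM (0.75), and the co-receptor TGFBR3 from 23.6 to 41.1 CPM (0.80). From ITGB4-low to lung-recovered cells 6 of the 12 were lower and 1 higher (median -0.20), with TGFB2 at -0.92 and TGFBR3 at -0.48, and TGFB1 higher by 0.32. Lung-recovered cells had 6 higher and 2 lower than ITGB4-high. ACVRL1, the receptor that works with ENG in endothelium, had 21 counts in all libraries, and its ligands GDF2 and BMP10 had 0.

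PDPN, a mucin-type protein that binds the platelet receptor CLEC1B and the cytoskeletal linkers ezrin and moesin, ran opposite to MCAM and ALCAM. Its libraries read 369 and 373 CPM in ITGB4-high cells, 209, 238 and 234 CPM in ITGB4-low, and 289.6, 297 and 283 CPM in lung-recovered cells. The groups did not overlap, and ITGB4-low was the lowest. PDPN fell by 0.71 (SE 0.05, edgeR adjusted p = 6.03e-10) from ITGB4-high to ITGB4-low, a 1.63-fold difference. It was 0.35 higher (SE 0.05, edgeR adjusted p = 8.48e-06) in lung-recovered than in ITGB4-low cells, and still below ITGB4-high (log2 difference -0.36, SE 0.05, edgeR adjusted p = 9.67e-06). The order of groups was thus that of ALCAM and NT5E turned over, with lung-recovered cells between.

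PDPN (ENSG00000162493) lies on chromosome 1, from 13583465 to 13617957. Its nearest tested neighbours DHRS3 and PRDM2 were lower in ITGB4-low than in ITGB4-high cells as well, by log2 fold changes of -1.29 and -0.44, and the median of 83 genes within 5 Mb was -0.13. Of 6 lymphatic endothelial markers, LYVE1, CCL21 and MMRN1 were at 0, and the sum, nearly all from RELN, was 20.8 to 21.0 CPM in ITGB4-high, 3.33 to 4.61 in ITGB4-low and 6.05 to 8.15 in lung-recovered libraries. PDPN and this sum were both highest in the ITGB4-high cells, which were grown in dishes, and lowest in ITGB4-low cells. The part of lymphatic cells in the level of PDPN was not tested. CLEC1B had 0 counts.

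PROCR, the endothelial protein C receptor, changed by less than any other called marker but ENG. It read 106 and 104 CPM in ITGB4-high cells, 88.4, 94.6 and 90.7 CPM in ITGB4-low, and 95.1, 101.0 and 99.4 CPM in lung-recovered libraries. The 3 groups did not overlap, with lung-recovered cells between the others. PROCR was lower in ITGB4-low than in ITGB4-high cells (log2 fold change -0.21, SE 0.05, edgeR adjusted p = 0.00149). Lung-recovered cells differed from ITGB4-low by 0.11 (95% interval 0.02 to 0.20, edgeR adjusted p = 0.0717) and from ITGB4-high by -0.10 (95% interval -0.20 to 0.01, edgeR adjusted p = 0.115). PROCR (ENSG00000101000) lies on chromosome 20, from 35172073 to 35216240.

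Thrombomodulin and the protease-activated receptors act with PROCR. THBD, which with PROCR activates protein C, read 74.2 CPM in ITGB4-high, 41.1 in ITGB4-low and 67.1 in lung-recovered cells (log2 fold changes -0.85 and 0.71 from group to group). The thrombin receptor F2R read 37.2, 45.8 and 65.1 CPM (0.30 and 0.51), and F2RL2 was 3.28 higher in lung-recovered than in ITGB4-low cells, from 0.624 to 6.16 CPM. In each of the 3 comparisons 5 of the 9 tested genes of this list were higher and 2 lower. PROC itself had 5 counts in all libraries.

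Per kb of exon, which allows levels of different genes to be compared, the order of the 8 tested markers changed between groups. In ITGB4-high cells PDPN led with 99.98 CPM per kb, followed by PROCR (62.1), CD44 (44.6), ENG (28.8), NT5E (16.4), ALCAM (5.05), MCAM (0.457) and CD24 (0.409). In ITGB4-low cells CD44 led with 66.9 CPM per kb, followed by PDPN (61.3), PROCR (53.8), ENG (33.1), NT5E (28.5), MCAM (22.1), ALCAM (13.7) and CD24 (1.06). In lung-recovered cells PDPN led again with 78.2 CPM per kb, followed by CD44 (66.2), PROCR (58.1), ENG (34.2), NT5E (21.0), MCAM (17.5), ALCAM (9.02) and CD24 (0.104). Neighbours in these orders did not overlap over the libraries of their group. MCAM stood at percentile 17.6 of the tested genes per kb in ITGB4-high cells, at 85.4 in ITGB4-low and at 81.3 in lung-recovered cells, and CD24 at 16.5, 25.6 and 4.05.

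**Figure D4:**
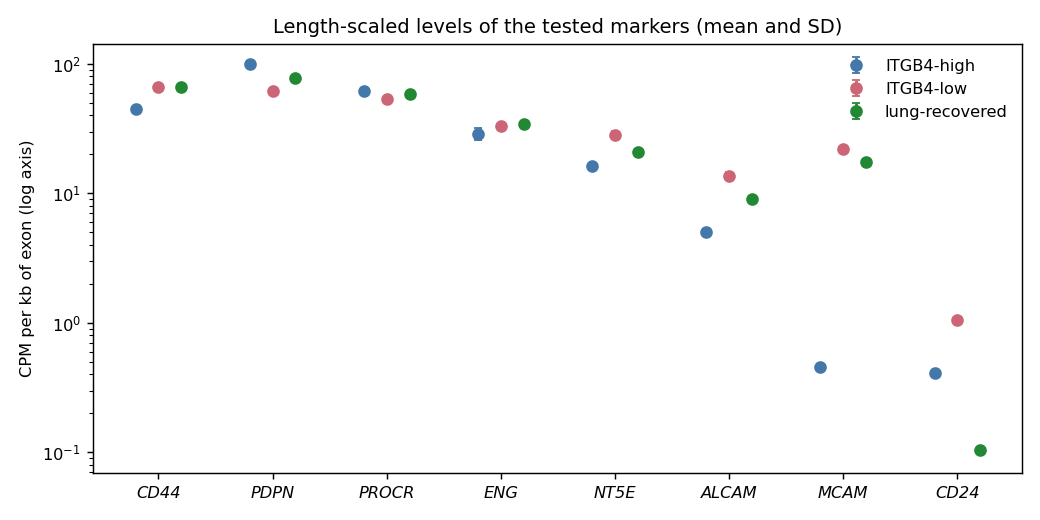
Levels of the 8 tested markers in CPM per kb of exon (vertical log axis) as group means with bars of 1 SD, colours marking the 3 groups. The means of PDPN, CD44, PROCR, ENG and NT5E all lie above 16 CPM per kb, whereas MCAM runs from 0.457 in ITGB4-high to 22.1 in ITGB4-low cells and CD24 does not exceed 1.06.

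Of 22 other tested stromal surface markers, 12 were higher and 6 lower in ITGB4-low than in ITGB4-high cells, with a median of 0.53. The integrin subunit ITGA11 (2.81) and the semaphorin receptor NRP2 (2.26) were higher, and ICAM1 (-2.24) and ITGA2 (-1.58) were lower. In lung-recovered against ITGB4-low cells 5 were higher and 9 lower. VCAM1 (4.15) and PDGFRA (3.38) were the highest, and CDH2 (-0.89) and ITGA1 (-0.57) were the lowest. Against ITGB4-high, lung-recovered cells had 14 of the 22 higher and 4 lower. Of 18 other stem-like markers tested, 6 were higher and 9 lower in ITGB4-low than in ITGB4-high cells (median -0.46), 4 were higher and 3 lower in lung-recovered than in ITGB4-low cells, and 5 were higher and 7 lower in lung-recovered than in ITGB4-high cells. That list holds ITGB4, for which the groups are named. Of the genes in that list called higher in ITGB4-low, ITGB3 (log2 fold change 2.48) and ABCG2 (1.01) differed most among those with at least 1 CPM. Both were also above ITGB4-high in lung-recovered cells, by 1.57 and 0.79. The aldehyde dehydrogenase ALDH1A1, at 84.4 CPM in ITGB4-high cells, had 2 counts in each of the groups of clone 1 cells.

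**Figure D5:**
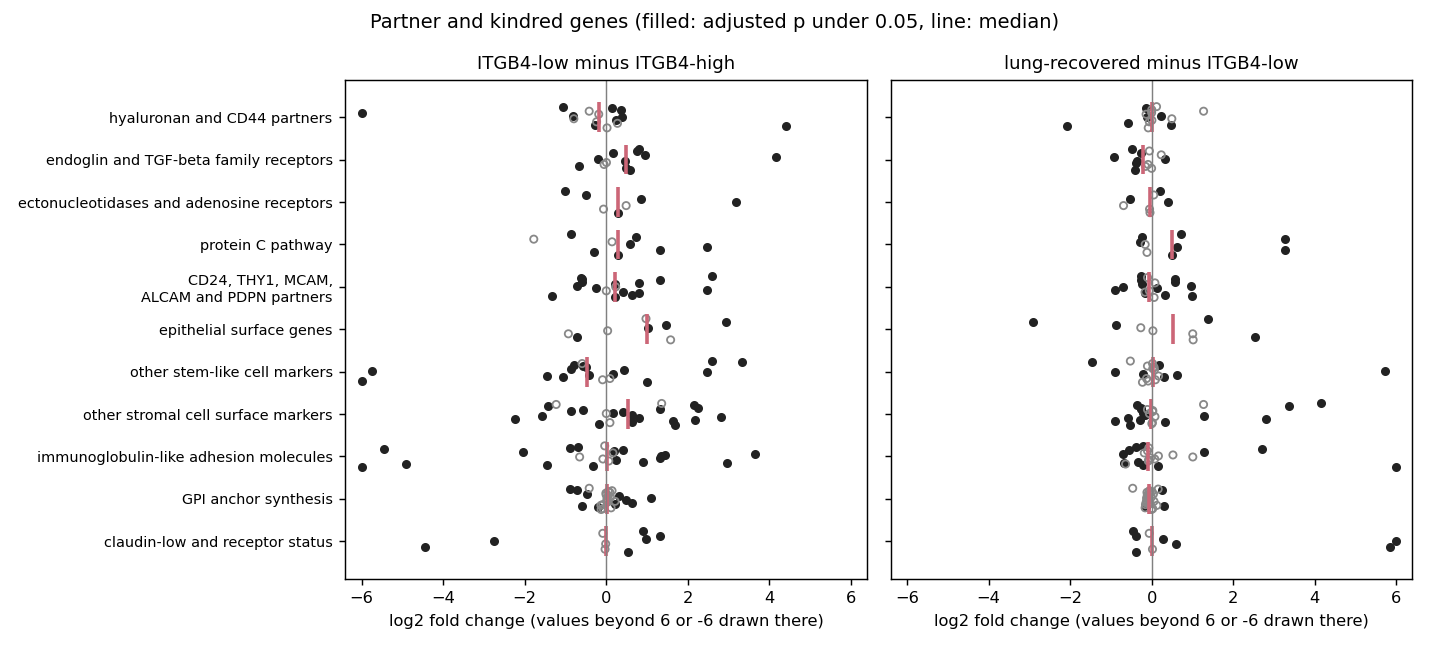
Log2 fold changes (horizontal axis, with values beyond 6 or -6 drawn at the edge) of the tested genes of 11 lists of partner and kindred genes, filled where edgeR adjusted p was under 0.05, with a line at the median of each list, for 2 comparisons. Most lists hold genes on either side of 0. In the left panel the line lies at 1.00 for epithelial surface genes, 0.53 for other stromal markers and 0.48 for the endoglin and TGF-beta family. Of the 8 epithelial surface genes, 4 were not called in that panel.

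Markers of immune cells were low. Of 15 myeloid markers 4 (AIF1, TYROBP, SPI1 and S100A8) were at 0, with sums of 4.29 to 5.32 CPM in ITGB4-high, 6.52 to 6.94 in ITGB4-low and 7.69 to 8.76 in lung-recovered libraries. CD68 led them with group means of 2.72, 4.19 and 4.93 CPM, followed by MARCO (0.725, 0.788 and 1.46 CPM). Of 13 lymphocyte markers 7 were at 0, with sums of 5.77 to 6.83, 1.97 to 3.06 and 9.96 to 12.5 CPM, nearly all from IL7R. The part of such cells in the levels of the 10 markers was not tested. Of the 12 genes on claudin-low state and receptor status 9 were tested: 4 were higher and 2 lower in ITGB4-low than in ITGB4-high, 4 higher and 3 lower in lung-recovered than in ITGB4-low, and 7 higher and 1 lower in lung-recovered than in ITGB4-high cells. The keratin genes KRT14 and KRT5 were lower in ITGB4-low than in ITGB4-high (log2 fold changes -4.44 and -2.74), whereas TWIST1 (1.33) and KRT8 (0.99) were higher. In lung-recovered cells KRT14 and KRT5 were 5.85 and 7.52 above ITGB4-low and 1.41 and 4.78 above ITGB4-high.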

How the data were processed

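Poly(A) RNA was sequenced from 8 libraries prepared with strand marking by dUTP, per the labels' protocols. The authors deposited raw counts per Ensembl gene, not normalized. STAR 2.7.1a and build hg38 are named in the submitters' processing notes. The counting program, its strand setting and the annotation release are not stated in the material at hand, so they are not given here.

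Of 58336 identifiers, 58216 matched GENCODE release 29, which gave symbols, coordinates and union exon lengths, and 29279 had 0 counts throughout. Groups came from the sample titles. A single model with group terms was fitted to all 8 libraries (20.41 to 27.22 M counts) in edgeR 4.0.16 under R 4.3.3. filterByExpr kept 15220 genes with 99.93% of counts. TMM scaling, the quasi-likelihood F test and Benjamini-Hochberg adjustment over all genes tested followed, and the procedure was tested on simulated counts. Dividing the log2 fold change by the root of F gave its standard error, and 95% intervals use the moderated degrees of freedom. With 5 residual degrees of freedom, p-values measure the spread between these libraries, which the labels call biological replicates without naming dishes or animals and which may be partly technical. Libraries of a group differed beyond sampling noise, with a chi-square of 1.60 to 6.58 per degree of freedom, and each was counted.

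A level of 0 is bounded by 3 counts over the group. Ratios of few counts carry exact binomial 95% intervals, which cover counting error only, as do the bounds. The markers and the 18 gene lists were chosen with earlier results of these data known. Named list genes are up to 2 called higher and 2 called lower per comparison by fold change with at least 1 CPM in a group, and partners needed beside a marker. The named marker genes of other cell types are up to 3 of the most abundant per list and genes at 0. Profiles were compared on log2(CPM + 0.1). Alternatives were RLE and upper-quartile scaling, DESeq2 1.42.0, no low-count filter, fits on the compared groups only, the replicate number as a block, leaving out each library, and windows of 1 and 10 Mb.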

Additional observations from a re-analysis of the deposited data

How the results depend on the processing

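Over 14 alternative settings, 7 to 8 markers were called between ITGB4-low and ITGB4-high, 5 in every setting between lung-recovered and ITGB4-low, and 6 to 7 between lung-recovered and ITGB4-high, with the lower counts reached when the second ITGB4-high library was left out. Of all genes, 7400 to 8635, 3532 to 4748 and 6623 to 8145 were called in the same order. The main fit called 56.2%, 30.1% and 51.2% of its 15220 tested genes, and the number tested varies with the setting. Of 378 values of single markers and of ITGB4 under these settings, 373 kept their direction and their side of the threshold, 2 lost their call and 3 changed sign. The calls lost were those of ENG without the second ITGB4-high library, at 0.08 and 0.13. The sign changes were all in values not called: CD44 between lung-recovered and ITGB4-low was 0.0025 without the third lung-recovered library (range -0.033 to 0.0025 with a library left out), and ITGB4 between lung-recovered and ITGB4-high was 0.063 without the first ITGB4-high library and 0.022 without the second lung-recovered library (range -0.096 to 0.063). With windows of 10 Mb the median around MCAM and THY1 between ITGB4-low and ITGB4-high was 0.37 for each, against 0.60 and 0.61. With windows of 1 Mb, which left 2 neighbours, the median around PDPN was -0.80 between ITGB4-low and ITGB4-high and -0.60 between lung-recovered and ITGB4-high. Libraries with the same replicate number did not deviate together (correlations -0.07 to 0.04 over 7 pairs), so the numbers were not taken to pair them. With the replicate number as a block, 8, 5 and 7 markers were called in the 3 comparisons, as without it, and 7990, 4146 and 7213 of all genes against 8554, 4586 and 7789. Depth limits CD24 in the lung-recovered libraries and EPCAM and THY1 in all.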
